A study of Mus musculus with 20 samples.

Results

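The 10 genes described here make up the local insulin-like growth factor (IGF) system of the mouse ovary: the ligands Igf1 and Igf2, the receptors Igf1r and Igf2r, the binding proteins Igfbp2, Igfbp3, Igfbp4, Igfbp5 and Igfbp6, and the protease Pappa. They were chosen by name, and all 10 were found among the 23457 genes counted in each of 20 ovary libraries. Each library came from 1 female mouse, and 5 mice were taken in each of 4 groups: normal (N/df) at 6 months, normal (N/df) at 22 months, dwarf (df/df) at 6 months and dwarf (df/df) at 22 months. All 4 groups belong to the Ames dwarf stock, and the normal mice carry 1 copy of the df allele. Dwarf mice are homozygous for it from conception in every tissue, and their pituitary makes no growth hormone, prolactin or thyrotropin, so genotype comparisons set mice that differ in all 3 hormones against each other. The design crosses genotype with age, and its title names reproductive senescence in these long-lived mice as the subject.

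IGF1 and IGF2 act through the receptor tyrosine kinase IGF1R, while IGF2R takes up IGF2 and carries it to the lysosome. Binding proteins hold most IGF outside cells, and the protease PAPP-A frees IGF by cutting IGFBP4. In the liver, Igf1 is switched on by growth hormone and feeds the circulation; in the rodent ovary, granulosa cells of growing follicles make their own IGF1, which adds to the action of follicle-stimulating hormone.

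Ovarian Igf2 stood higher in dwarf than in normal mice at both ages, and it did so in every dwarf library compared with every normal library of the same age. Igf1 stood higher in old dwarf than in old normal mice. It also stood lower in old than in young normal mice, a fall that only 8 of 21 alternative analyses called. Igfbp4 stood lower in young dwarf than in young normal mice. Igf2 and Igfbp4 rose with age in dwarf mice, which 10 and 11 of 21 alternatives called. The receptors, the other 4 binding proteins and Pappa did not pass the test in any comparison. No member passed the test of a difference between the age responses of the 2 genotypes.

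The promoter sequences of the 3 genes that passed a test are shown because Igf1 and Igf2 are each read from more than 1 start, which a count per gene adds together. Each is the stretch of 250 bases before a start of transcription in RefSeq on GRCm38.p6, the NCBI name of the mm10 build, written 5′ to 3′ along the strand of the gene. Capitals mark the motifs that were searched on both strands: the TATA box TATAAA, the GC box GGGCGG, the CCAAT box CCAAT, the STAT site TTCNNNGAA, the FOXO site GTAAACA and the cyclic AMP response element TGACGTCA.
Igf1, chr10:87860861-87861110, plus strand: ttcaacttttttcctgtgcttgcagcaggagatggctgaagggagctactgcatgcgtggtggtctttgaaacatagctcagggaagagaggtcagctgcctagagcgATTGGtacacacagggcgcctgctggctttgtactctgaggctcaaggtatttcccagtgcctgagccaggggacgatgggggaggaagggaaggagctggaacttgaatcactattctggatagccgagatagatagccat
Igf2, chr7:142657497-142657746, minus strand: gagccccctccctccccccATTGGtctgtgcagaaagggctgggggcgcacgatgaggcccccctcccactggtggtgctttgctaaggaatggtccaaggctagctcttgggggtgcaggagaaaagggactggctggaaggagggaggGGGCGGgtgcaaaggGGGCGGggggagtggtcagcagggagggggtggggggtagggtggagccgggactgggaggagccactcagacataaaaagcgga
Igf2, chr7:142658805-142659054, minus strand: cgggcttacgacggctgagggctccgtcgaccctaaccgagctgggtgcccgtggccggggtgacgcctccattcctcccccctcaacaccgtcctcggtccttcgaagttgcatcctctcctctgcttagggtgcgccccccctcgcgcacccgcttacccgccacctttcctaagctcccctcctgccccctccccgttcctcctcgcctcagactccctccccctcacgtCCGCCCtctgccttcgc
Igfbp4, chr11:99040994-99041243, plus strand: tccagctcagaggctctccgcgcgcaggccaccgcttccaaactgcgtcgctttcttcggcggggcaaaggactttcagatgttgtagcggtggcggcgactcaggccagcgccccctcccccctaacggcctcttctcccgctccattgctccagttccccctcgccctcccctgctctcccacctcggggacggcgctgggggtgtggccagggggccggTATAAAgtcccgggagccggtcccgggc
The Igf1 window ends at the start of 3 of the 5 Igf1 transcripts in the deposited annotation, and the Igf2 window chr7:142658805-142659054 ends at the start of 1 of its 3 Igf2 transcripts. The other Igf2 window shown lies 15 bases from the start of another Igf2 transcript, and the Igfbp4 window 16 bases from the start of the single Igfbp4 transcript. The Igf2 windows that begin at 142661272 and 142666817 are not shown. They lie 236 and 5781 bases from the nearest annotated start and hold none of the motifs. Igfbp4 has a TATA box 28 bases before its start, whereas the Igf1 window holds only a CCAAT box, 142 bases before the start. The Igf2 window at 142657497 holds GC boxes 100 and 85 bases and a CCAAT box 231 bases before the start, and the window at 142658805 has 1 GC box, 17 bases before it. RefSeq windows were matched for 9 of the 10 genes, 13 windows in all, 4 of them for Igf2 and 2 for Igfbp2. Pappa had no entry. GC boxes were in 5 of the 13 windows, those of Igf1r, Igf2r, Igfbp2 and Igf2, against 32.74% of 32851 mouse promoter windows of the same length. TATA boxes were in 2 windows (Igfbp4 and Igfbp6, against 12.37%) and CCAAT boxes in 3 (against 33.85%). The STAT, FOXO and cyclic AMP motifs were in 0 of the 13 windows, and 7.02%, 3.166% and 1.546% of all windows hold them. These matches describe letters in a short window. They do not show binding, and no value here tells the starts of Igf1 or of Igf2 apart.

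The counts are reads per gene, given below as CPM, in which the reads assigned to genes in a library are scaled to 1000000. Library totals ran from 1365640 to 36068284 reads. Normal 6-month replicate 3 was the shallowest and had the highest share of the ribosomal RNA gene Rn45s, at 14.8% of its reads. Normal 6-month replicate 2 stood apart in its ovarian markers: 10 granulosa cell markers summed to 197 CPM, against a group median of 4350 CPM, with Cyp19a1 (aromatase) at 0, and 8 oviduct markers summed to 6778 CPM, against a median of 152 CPM. The oviduct markers also summed to 2267.5 to 4197 CPM in old normal and 2180 to 3889 CPM in old dwarf mice. Of the 8, 0 were called with age in either genotype. Normal 22-month replicate 3 had 922 CPM over 5 B cell markers, against a group median of 38.4 CPM. These 3 libraries are called the libraries in doubt below. Counts of dwarf 22-month replicates 1 and 4 were unusually alike (chi-square per degree of freedom 2.46, against at least 12.2 for every other pair of a group). That value exceeds sampling noise, but it cannot show whether the 2 libraries are independent of each other. Both were kept, and an alternative summed them. In RNA from whole ovaries, fewer cells of a type and less RNA per cell cannot be told apart.

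Of 16099 genes with enough reads to be tested, which include all 10 members, edgeR's quasi-likelihood test called 6.75% with age in normal mice, 11.2% with age in dwarf mice, 4.57% between genotypes at 6 months and 3.81% between genotypes at 22 months, at a Benjamini-Hochberg adjusted p under 0.05. The members called were 1, 2, 2 and 2 of 10 in the same order. The comparisons share groups, so their counts are not independent of each other. The median log2 change over the 10 members was -0.02 with age in normal mice, 0.19 with age in dwarf mice, 0.13 between genotypes at 6 months and 0.33 between genotypes at 22 months, beside -0.02, 0.00, -0.04 and -0.04 over all tested genes. For the difference of the age responses, 0% of tested genes and 0 of 10 members were called by edgeR, with 1127 genes and 0 members at an unadjusted p under 0.05. DESeq2 and limma voom called 17 and 9 genes there, and edgeR without the 3 libraries in doubt called 202 of 16366, with 0 members in each.

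**Figure D1:**
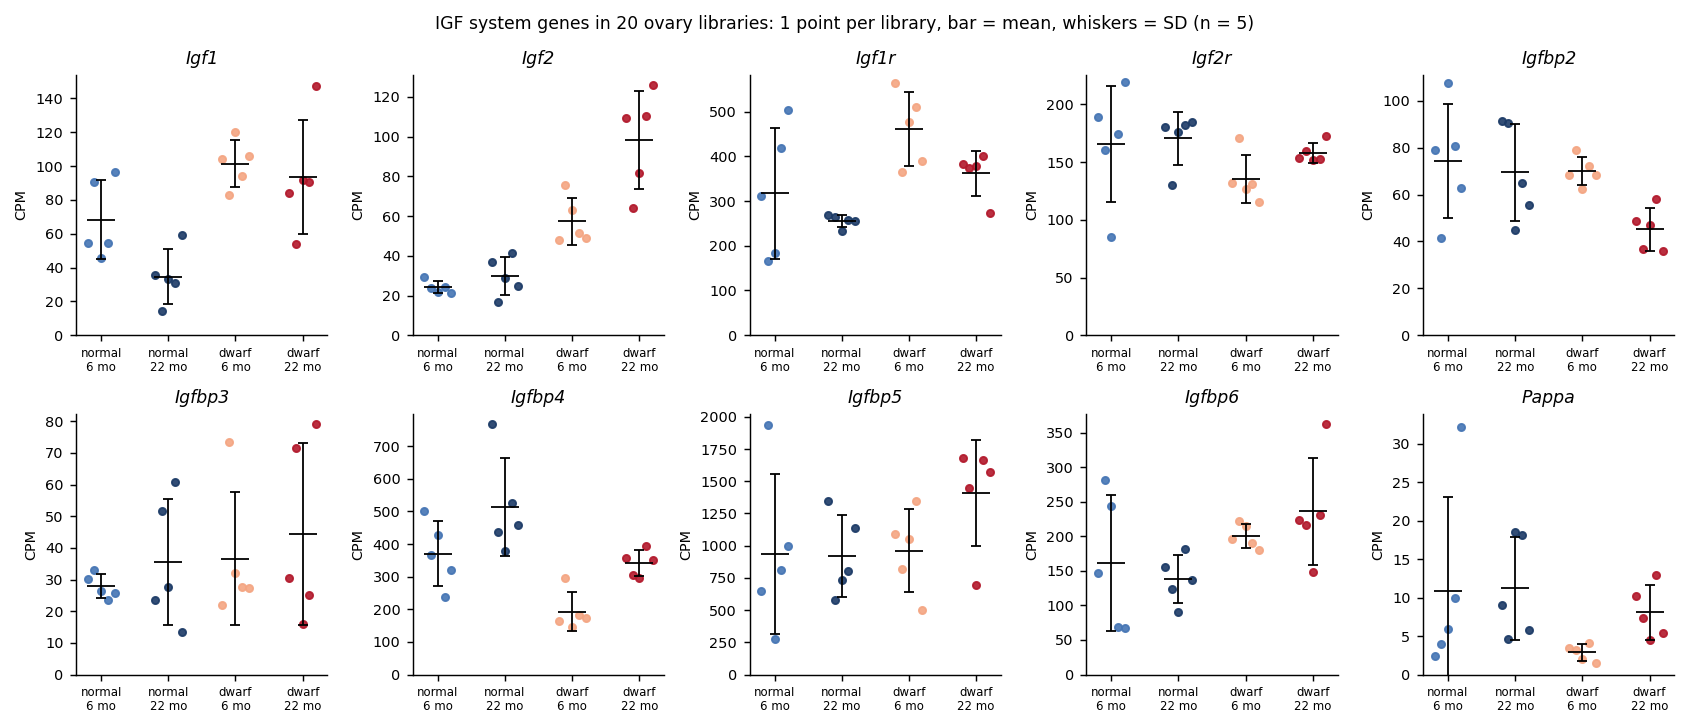
CPM of the 10 IGF system genes in each library, 1 point per mouse, by genotype and age. Horizontal bars are group means and whiskers are SD (n = 5). Each axis starts at 0, where the lower whisker of Pappa in normal 6-month mice is cut off. Every dwarf point of Igf2 lies above every normal point of the same age.

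Igf2 encodes the fetal growth factor IGF2, which in mice is expressed from the paternal allele and falls in most tissues after birth. Replicates 1 to 5 of the normal mice at 6 months had Igf2 at 29.3, 24.0, 22.0, 24.5 and 21.4 CPM, and dwarf mice of that age had 48.1, 75.4, 63.0, 51.2 and 49.1 CPM. At 22 months, Igf2 was at 36.9, 16.7, 28.9, 41.3 and 24.9 CPM in normal and 109, 64.1, 81.6, 110.1 and 126 CPM in dwarf mice. The genotypes did not overlap at either age, and the lowest dwarf library was above the highest normal library by more than the range of the normal group at 6 months. Igf2 was 2.30-fold higher in dwarf mice at 6 months (log2 change 1.20 ± 0.21 SE, edgeR adjusted p = 0.00286) and 3.12-fold higher at 22 months (1.64 ± 0.21, edgeR adjusted p = 0.000426). Both differences passed the test in all 21 alternative analyses run for each, with log2 changes of 1.08 to 1.29 at 6 months and 1.52 to 1.78 at 22 months. Within dwarf mice Igf2 rose 1.62-fold between 6 and 22 months (log2 change 0.70 ± 0.21, edgeR adjusted p = 0.0346), although the lowest 22-month library, at 64.1 CPM, lay within the range of the 6-month libraries. That rise with age passed the test in 10 of 21 alternatives, with log2 changes of 0.60 to 0.83. With dwarf 22-month replicates 1 and 4 summed the rise was 0.66 and was not called (edgeR adjusted p = 0.0737). It was missed without any single one of 7 libraries (dwarf 6-month replicates 1, 3, 4 and 5 and dwarf 22-month replicates 1, 4 and 5), with edgeR adjusted p values of up to 0.0810 over the 21. In normal mice the change with age was 0.26 ± 0.21 (edgeR adjusted p = 0.475), and the difference between the age responses was 0.44 ± 0.29 (edgeR adjusted p = 0.859).

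Igf2 spans chr7:142650768-142661035 on the minus strand of mm10 and shares 98 bases of exon with Igf2as on the other strand. Since no source used here gives the strand setting of the counting, reads in those bases cannot be assigned, but Igf2as itself was at 0 to 2.70 CPM. H19, the maternally expressed non-coding RNA gene of the same imprinted domain, lies 72621 bases away. H19 read 40.8, 6.12, 48.3, 19.7 and 59.2 CPM in normal mice at 6 months and 9.13, 13.6, 4.30, 9.26 and 6.98 CPM at 22 months. In dwarf mice H19 was at 30.5, 37.1, 189.8, 119.7 and 23.5 CPM at 6 months and 32.2, 54.7, 13.1, 42.7 and 88.0 CPM at 22 months. The coefficient of variation of H19 between mice was 62.0% and 90.7% in young normal and young dwarf mice and 60.5% in old dwarf mice, against 12.8%, 20.4% and 25.3% for Igf2. In old normal mice the 2 genes were closer, at 39.4% for H19 and 32.6% for Igf2. The groups of H19 overlapped in all 4 comparisons. Its largest log2 difference, dwarf against normal at 22 months, was 2.33 ± 0.67 (edgeR adjusted p = 0.0575).

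Igf1, on chr10:87859056-87937047 on the plus strand, is the growth hormone-dependent ligand in liver. It was at 54.4, 90.6, 45.4, 54.7 and 96.3 CPM in normal mice at 6 months and at 35.7, 14.2, 33.4, 30.9 and 59.0 CPM at 22 months. Dwarf mice had 104, 82.7, 120.0, 94.2 and 106 CPM of Igf1 at 6 months and 84.2, 53.7, 91.8, 90.4 and 147 CPM at 22 months. Replicates 2 and 5 of the young normal mice stood well above the other 3, and 1 old normal library, replicate 5, reached the level of those 3. With age in normal mice Igf1 fell 2.01-fold (log2 change -1.01 ± 0.30, edgeR adjusted p = 0.0489). In dwarf mice the change with age was -0.20 ± 0.30 (edgeR adjusted p = 0.672), and the difference between the 2 age responses was 0.81 ± 0.42 (edgeR adjusted p = 0.769), so the responses were not shown to differ. At 22 months Igf1 was 2.54-fold higher in dwarf than in normal mice (1.35 ± 0.30, edgeR adjusted p = 0.0168), with 1 dwarf library below the highest normal library. At 6 months the difference was 0.54 ± 0.30 (edgeR adjusted p = 0.354).

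The fall of Igf1 with age in normal mice was at the edge of the threshold: 8 of 21 alternatives called it, and the log2 change ranged from -1.28 to -0.74 with adjusted p up to 0.262. The oviduct marker score, the mean log2 CPM of the 8 oviduct markers, was 1.65 to 8.19 in young and 6.51 to 7.60 in old normal mice. In dwarf mice it was 1.69 to 6.67 and 6.18 to 7.34. Because the score was higher in old than in most young libraries, a call lost with it as a covariate cannot tell oviduct markers from age. With that covariate the fall was -0.96 (edgeR adjusted p = 0.225). It was not called without the 3 libraries in doubt (-0.92, edgeR adjusted p = 0.0704), nor without any single one of 7 of the 10 libraries: normal 6-month replicates 3, 4 and 5 and normal 22-month replicates 1, 2, 3 and 4 (edgeR adjusted p from 0.0507 to 0.116 without each). The genotype difference at 22 months passed in 20 of 21 alternatives, with log2 changes of 1.15 to 1.62. The exception left out the 3 libraries whose titles carry the numbers 21 to 23, outside the run of their groups (1.15, edgeR adjusted p = 0.0765).

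Summed per kilobase of exon, the 2 ligands were at 14.5 ± 2.80 and 11.5 ± 3.35 CPM per kb in young and old normal mice, and at 26.5 ± 2.65 and 35.1 ± 9.71 CPM per kb in young and old dwarf mice (mean ± SD, n = 5). The lowest dwarf library, at 22.0 CPM per kb, was above the highest normal library, at 17.4 CPM per kb. Igf2 made up 40.8 ± 9.25% and 62.1 ± 10.9% of that sum in young and old normal mice, and 50.8 ± 6.90% and 66.4 ± 4.37% in young and old dwarf mice. The balance between the ligand transcripts was therefore on the Igf1 side in young normal mice, near equal in young dwarf mice and on the Igf2 side in old mice of both genotypes, with Igf2 under 50% in 1 old normal library (43.8%). Because the sum is made of members that were themselves tested, it is given without a test.

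Marker RNA of other cell types also differed with genotype and age. Of 7 luteal cell markers, 4 were called lower in dwarf mice at each age, and their summed level was 121 to 7484 CPM and 1212 to 7452 CPM in normal mice at 6 and 22 months against 289 to 1103 and 260 to 758 CPM in dwarf mice. Of 5 theca cell markers, 1 was called higher in dwarf mice at 6 months and 2 at 22 months, and their sum was 71.1 to 889 and 93.8 to 241 CPM in normal mice against 502 to 1042 and 273 to 579 CPM in dwarf mice. Of 10 oocyte markers, 9 were called lower with age in normal and 8 in dwarf mice; Figla, which oocytes need to form follicles, was at 0 in at least 1 library of each of the 3 groups other than dwarf 6-month mice. The 10 granulosa cell markers summed to 2976 to 4774 CPM in young and 1384 to 2649 CPM in old dwarf mice, and to 197 to 5700 and 599 to 2162 CPM in normal mice, with 1 of 10 called lower with age in each genotype. No luteal or theca marker was at 0 in any library. Of the immune cell markers, 5 of 5 for B cells, 3 of 5 for T cells and 2 of 9 for macrophages were called higher with age in normal mice, and 0 in dwarf mice. B cell markers summed to 5.72 to 15.4 CPM in young and 17.5 to 922 CPM in old normal mice, and to 7.46 to 42.0 and 13.1 to 70.4 CPM in dwarf mice. The value of 922 CPM is from normal 22-month replicate 3, a library in doubt, and the group median was 38.4 CPM. T cell markers summed to 6.68 to 13.2 and 10.7 to 131 CPM in normal and 9.32 to 17.6 and 14.3 to 31.8 CPM in dwarf mice. Macrophage markers summed to 296 to 606 and 685 to 2108 CPM in normal and 361 to 495 and 430.2 to 678 CPM in dwarf mice. Between genotypes at 22 months 1 macrophage marker was called lower in dwarf mice. The B cell marker Ms4a1 was at 0 in at least 1 young normal and 1 old dwarf library. The part of these markers in the differences of Igf1 and Igf2 was not tested.

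Igf1r, the signalling receptor for both ligands, was at 312, 166, 184, 419 and 503 CPM in normal mice at 6 months and at 269.8, 263, 233, 257 and 256 CPM at 22 months. Dwarf mice had 563, 366, 477, 509.5 and 389 CPM of Igf1r at 6 months and 382, 374, 378, 400.4 and 274 CPM at 22 months. The young normal group was spread from 166 CPM in replicate 2 to 503 CPM in replicate 5, whereas the old normal libraries lay close together. Old dwarf libraries were all above old normal libraries, yet the lowest of the former and the highest of the latter were close, and the log2 difference of 0.41 ± 0.22 did not pass the test (edgeR adjusted p = 0.347). At 6 months the difference was 0.52 ± 0.22 (edgeR adjusted p = 0.202). The change of Igf1r with age was -0.32 ± 0.22 in normal mice and -0.43 ± 0.22 in dwarf mice (edgeR adjusted p = 0.395 and 0.203). Without the 3 libraries in doubt Igf1r was called lower with age in normal mice (-0.60, edgeR adjusted p = 0.0150) and in dwarf mice (-0.40, edgeR adjusted p = 0.0475), while the genotype difference at 6 months was 0.20 (edgeR adjusted p = 0.439). With the oviduct marker score as a covariate the age changes of Igf1r were 0.13 in normal and -0.14 in dwarf mice (edgeR adjusted p = 0.837 and 0.747), and the genotype difference at 6 months was called (0.65, edgeR adjusted p = 0.0430). The changes of Igf1r with age were called in 1 of 21 alternatives in normal and 2 of 21 in dwarf mice, and its genotype differences in 2 of 21 at each age.

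Igf2r, the scavenger receptor for IGF2, had the smallest spread between mice of the 10 genes, with a biological coefficient of variation of 0.18 in edgeR against 0.25 to 0.61 for the others. It ranged from 84.9 to 219 CPM with a median of 174 CPM in young normal mice and from 129.9 to 184 CPM with a median of 180.1 CPM in old ones. In dwarf mice it ranged from 116 to 171 CPM (median 131 CPM) at 6 months and from 152 to 173 CPM (median 153 CPM) at 22 months. The largest of its 4 log2 differences was between genotypes at 6 months, -0.32 ± 0.15 (edgeR adjusted p = 0.253), and that difference was -0.49 with an edgeR adjusted p of 0.0133 without the 3 libraries in doubt, 1 of 3 alternatives of 21 that called it.

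**Figure D2:**
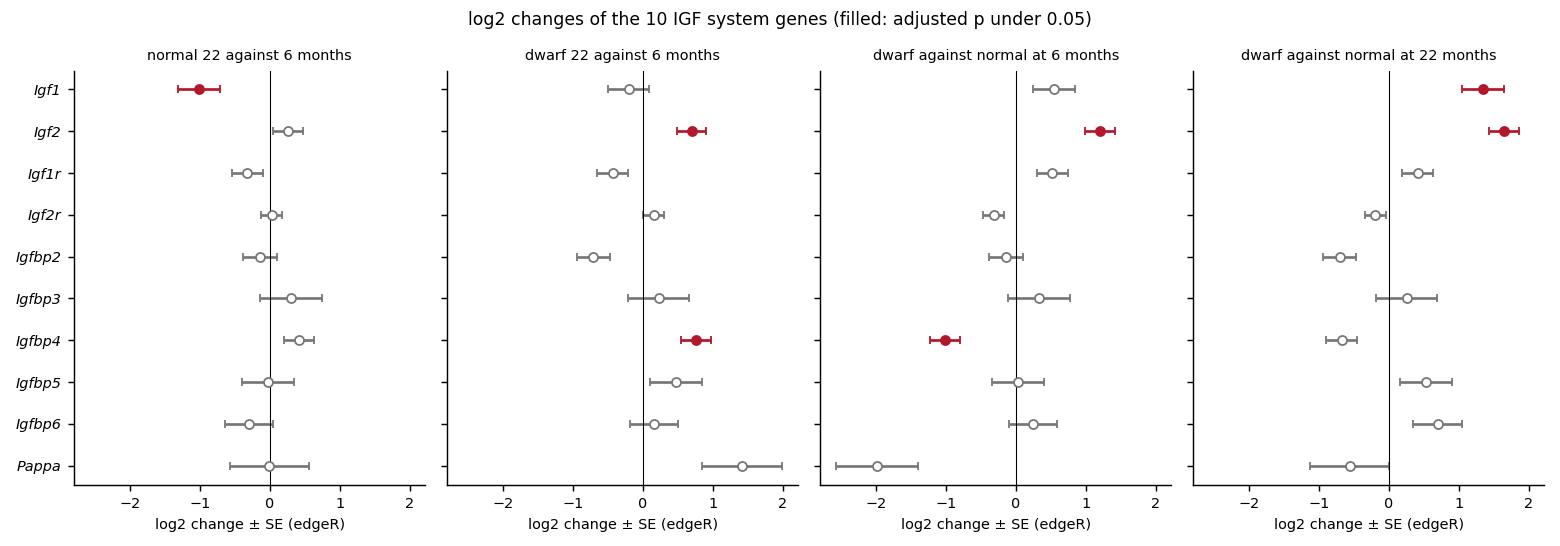
log2 changes of the 10 genes in the 4 comparisons from edgeR, with SE as horizontal whiskers. Filled red points have an adjusted p under 0.05: Igf1 with age in normal mice, Igf2 and Igfbp4 with age in dwarf mice, Igf2 and Igfbp4 between genotypes at 6 months, and Igf1 and Igf2 between genotypes at 22 months.

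Igfbp4, which in the ovary is known as an inhibitor of IGF action in atretic follicles, was the binding protein that passed a test. It spans chr11:99041260-99052643 on the plus strand. Igfbp4 was at 502, 366, 427, 238 and 321 CPM in normal mice at 6 months and at 767, 435, 379.7, 524 and 459.5 CPM at 22 months. Young dwarf mice had Igfbp4 at 164, 296, 145, 183 and 174 CPM, and old dwarf mice at 357, 305, 297, 395 and 349 CPM. All young dwarf libraries but replicate 2 lay below every other library in the study. Igfbp4 was 2.02-fold lower in dwarf than in normal mice at 6 months (log2 change -1.01 ± 0.22, edgeR adjusted p = 0.0112). In dwarf mice it rose 1.69-fold with age, without overlap (0.76 ± 0.22, edgeR adjusted p = 0.0322). In normal mice the change with age was 0.42 ± 0.22 (edgeR adjusted p = 0.256), and the difference of the age responses was 0.34 ± 0.31 (edgeR adjusted p = 0.922). The genotype difference at 22 months was -0.68 ± 0.22 (edgeR adjusted p = 0.0902), and 3 of 21 alternatives called it: without the 3 libraries in doubt (-0.75, edgeR adjusted p = 0.0421), limma voom (adjusted p = 0.0231) and only the groups compared (edgeR adjusted p = 0.0483).

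The genotype difference of Igfbp4 at 6 months passed in 19 of 21 alternatives. It was missed when only the groups compared were fitted (edgeR adjusted p = 0.0693) and without dwarf 6-month replicate 1 (edgeR adjusted p = 0.0508). Its rise with age in dwarf mice passed in 11 of 21 alternatives, with log2 changes of 0.62 to 0.94, and was lost with the oviduct marker score as a covariate (0.62, edgeR adjusted p = 0.142). With dwarf 22-month replicates 1 and 4 summed the rise was 0.73 and was not called (edgeR adjusted p = 0.0685). It was also lost without any single one of 8 of the 10 dwarf libraries, all but 6-month replicate 2 and 22-month replicate 3, at adjusted p values of up to 0.0853. The 8 oviduct markers summed to 48.0 to 1762 CPM in young and 2180 to 3889 CPM in old dwarf mice, with 0 of 8 called. Of 6 adipocyte markers, 5 were called higher with age in dwarf mice, and they summed to 17.2 to 55.9 CPM at 6 and 75.6 to 239 CPM at 22 months. The oviduct score was higher in old than in most young dwarf libraries, so as a covariate it cannot tell oviduct markers from age. The part of these oviduct and adipocyte markers in the rise of Igfbp4 was not tested.

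Igfbp2 was at 79.0, 41.4, 108, 80.9 and 62.9 CPM in normal mice at 6 months and at 91.2, 90.7, 44.9, 65.0 and 55.5 CPM at 22 months. Igfbp2 in dwarf mice was at 68.3, 78.8, 62.3, 72.1 and 68.3 CPM at 6 months and at 48.9, 36.7, 46.8, 58.0 and 36.1 CPM at 22 months. Old dwarf libraries were all below young dwarf libraries, but the log2 change of -0.71 ± 0.24 missed the threshold (edgeR adjusted p = 0.0626). DESeq2 called it, at an adjusted p of 0.0499, and so did the analysis without the 3 libraries in doubt (-0.67, edgeR adjusted p = 0.00551). Limma voom and the fit of only the groups compared also called it, which makes 4 of 21 alternatives. Between genotypes at 22 months Igfbp2 differed by -0.71 ± 0.24 (edgeR adjusted p = 0.107), which 2 of 21 alternatives called: without the 3 libraries in doubt (-0.81, edgeR adjusted p = 0.00564) and limma voom (-0.54, adjusted p = 0.0248). Igfbp2 (chr1:72824480-72852471, plus strand) and Igfbp5 (chr1:72858065-72874865, minus strand) are neighbours that point towards each other, 5593 bases apart. Over the 20 libraries their deviations from the group means gave r = -0.56 (permutation p = 0.0465, adjusted over 45 pairs of members 0.267) and rho = -0.36 (permutation p = 0.180, adjusted 0.580). Without the 2 libraries farthest from the median of Igfbp2 r was -0.10, so the relation rests on those.

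Igfbp5 had the highest CPM of the 10 genes, and by mean CPM over the 20 libraries it stood at the 99.6th percentile of tested genes. It ranged from 278 to 1940.2 CPM (median 812 CPM) in young normal and from 575 to 1351 CPM (median 803 CPM) in old normal mice. Igfbp5 in dwarf mice ranged from 500.3 to 1349.8 CPM (median 1050.3 CPM) at 6 months and from 697 to 1679 CPM (median 1572 CPM) at 22 months. The group means of 935, 919.6, 962 and 1411 CPM differed by less than the spread between libraries, and the largest log2 difference was 0.53 ± 0.37 (edgeR adjusted p = 0.500) between genotypes at 22 months.

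Igfbp6, which prefers IGF2 over IGF1, ranged from 67.3 to 281 CPM (median 148 CPM) in young normal and from 90.4 to 182 CPM (median 137 CPM) in old normal mice. Igfbp6 in dwarf mice ranged from 181 to 222 CPM (median 197 CPM) at 6 months and from 148 to 362 CPM (median 223 CPM) at 22 months. The 2 highest young normal values of Igfbp6 were in replicates 2 and 3, at 281 and 243 CPM, which are also the 2 lowest for Igf1r. Those are 2 of the libraries in doubt, and without the 3 Igfbp6 was called higher in dwarf mice at 6 months (log2 difference 1.12, edgeR adjusted p = 0.0132), against 0.24 ± 0.35 with them (edgeR adjusted p = 0.773). That difference was called in 2 of 21 alternatives. At 22 months the difference of Igfbp6 was 0.70 ± 0.35 (edgeR adjusted p = 0.302).

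Igfbp3, the main carrier of IGF in the blood, ranged from 23.6 to 33.1 CPM (median 26.4 CPM) and from 13.4 to 60.7 CPM (median 27.8 CPM) in normal mice at 6 and 22 months. In dwarf mice it ranged from 22.1 to 73.6 CPM (median 27.7 CPM) and from 16.0 to 79.1 CPM (median 30.5 CPM). Its medians were close to each other in all 4 groups, and its 4 log2 differences lay between 0.23 and 0.33 with SE of 0.44.

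Pappa was the scarcest member, with 8 to 523 reads per library. It was at 2.44, 4.00, 5.86, 9.94 and 32.2 CPM in normal mice at 6 months and at 9.03, 4.64, 18.5, 18.1 and 5.80 CPM at 22 months. Dwarf values of Pappa were 3.49, 3.21, 2.02, 4.15 and 1.55 CPM at 6 months and 10.3, 7.31, 4.46, 13.0 and 5.37 CPM at 22 months. The young dwarf group was the lowest and the most even of the 4, and all its libraries were below all old dwarf libraries. The log2 difference between genotypes at 6 months was -1.98 ± 0.58 (edgeR adjusted p = 0.0584), with replicate 5 of the normal mice far above the rest. Without that replicate it was -1.03 (edgeR adjusted p = 0.238). The difference was called in 4 of 21 alternatives, among them DESeq2 (adjusted p = 0.00965) and edgeR without the 3 libraries in doubt (-2.35, adjusted p = 0.0181), and ranged from -2.35 to -1.02. The change with age in dwarf mice was 1.42 ± 0.58 (edgeR adjusted p = 0.116), called in 3 of 21 alternatives.

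**Figure D3:**
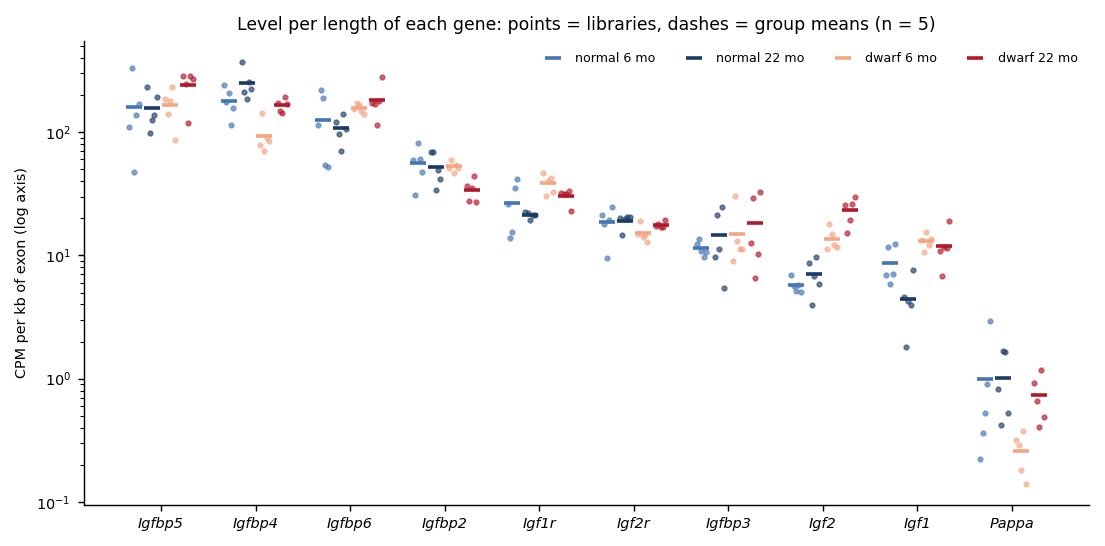
Level of each gene in CPM per kb of exon on a log axis, ordered by the mean over the 20 libraries. Points are libraries and dashes are group means (n = 5). Igfbp4, Igfbp5 and Igfbp6 lie highest in each group, and Pappa lowest.

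Levels of different genes were compared per kilobase of exon. In normal mice the order began with Igfbp4 (179 ± 48.7 and 248 ± 73.2 CPM per kb at 6 and 22 months, mean ± SD, n = 5), Igfbp5 and Igfbp6. In dwarf mice it began with Igfbp5 (164 ± 54.5 and 241 ± 70.0 CPM per kb), Igfbp6 and Igfbp4. Igfbp4 was above Igfbp5 in 2 of 5 young and 5 of 5 old normal libraries, so the first 2 places were not set apart in young normal mice. In young dwarf mice Igfbp6 was above Igfbp4 in 5 of 5 libraries, while Igfbp5 and Igfbp6 could not be put in order (3 of 5). Igfbp2 came next in each group at 34.1 to 56.0 CPM per kb, above Igf1r in 5 of 5 libraries of each group except old dwarf mice (4 of 5). Igf2 moved most in this order, from the ninth place in young normal mice at 5.72 ± 0.73 CPM per kb to the sixth in old dwarf mice at 23.2 ± 5.85 CPM per kb, where it was above Igfbp3 in 3 of 5 libraries. Pappa was last in all 20 libraries. With the longest transcript in place of the union of exons, only Igf1 and Igf2 in young dwarf mice changed places.

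The 5 binding proteins together carried 37.4 ± 9.93 and 54.2 ± 19.5 times the ligand level per kb in young and old normal mice, and 18.2 ± 2.95 and 19.0 ± 5.53 times in young and old dwarf mice. Their own sum differed less: 532 ± 150.2 and 579 ± 143 CPM per kb in normal and 481 ± 68.2 and 641 ± 136 CPM per kb in dwarf mice. Within that sum Igfbp4 held 34.5 ± 8.35% and 42.6 ± 2.64% in normal mice and 19.4 ± 4.87% and 26.4 ± 4.78% in dwarf mice. Igfbp6 held 22.2 ± 9.72% and 18.6 ± 3.14% in normal and 32.8 ± 3.76% and 28.2 ± 4.49% in dwarf mice. These are ratios of messenger RNA levels and say nothing of the amounts of protein.

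Among 28 other genes of IGF action and its control by growth hormone, 26 had enough reads to be tested. With age in normal mice 1 was called higher and 1 lower, with age in dwarf mice 0 and 3, between genotypes at 6 months 2 and 2, and at 22 months 0 and 1. Of all tested genes 6.75%, 11.2%, 4.57% and 3.81% were called in the same order. The median log2 changes of the 26 were -0.10, -0.22, 0.00 and -0.08. Igfbp1 and Igfbpl1, the 2 that were not tested, had at most 27 and 8 reads in a library.

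Cish encodes a feedback inhibitor that STAT5 switches on after growth hormone or prolactin signals. It was at 114, 20.0, 56.4, 44.9 and 82.9 CPM in normal mice at 6 months and at 19.8, 25.2, 31.7, 106 and 11.7 CPM at 22 months. Dwarf mice had Cish at 6.95, 11.6, 7.27, 8.44 and 6.71 CPM at 6 months and at 9.99, 8.79, 8.03, 8.33 and 7.04 CPM at 22 months. Every dwarf library was below every normal library of any age, and the dwarf values were nearly level. Cish was 8.02-fold lower in dwarf mice at 6 months (log2 change -3.00 ± 0.49, edgeR adjusted p = 0.00183) and 4.79-fold lower at 22 months (-2.26 ± 0.49, edgeR adjusted p = 0.0138). The difference at 6 months was called in all 21 alternatives. That at 22 months was called in 20 of 21 and was missed without title numbers 21 to 23 (-2.21, edgeR adjusted p = 0.0654). It was -1.48 without normal 22-month replicate 4, the library at 106 CPM (edgeR adjusted p = 0.0388), and -1.56 with limma voom (adjusted p = 0.0243). Socs2, a feedback inhibitor of the same family and pathway, differed between genotypes by 0.17 ± 0.31 and -0.11 ± 0.31 at 6 and 22 months (edgeR adjusted p = 0.834 and 0.920). The growth hormone receptor gene Ghr differed by 0.59 ± 0.22 and 0.50 ± 0.22 (edgeR adjusted p = 0.149 and 0.232). Stat5a was 1.94-fold lower in dwarf mice at 6 months (-0.95 ± 0.27, edgeR adjusted p = 0.0491), a call that 8 of 21 alternatives made; without normal 6-month replicate 2, at 178 CPM, the difference was -0.54 (edgeR adjusted p = 0.111).

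Downstream of the receptors, the adaptor genes Irs2 and Gab1 were higher in young dwarf mice. Irs2 was at 53.7, 16.1, 19.0, 26.9 and 44.2 CPM in young normal and 82.1, 63.8, 83.8, 80.6 and 75.9 CPM in young dwarf mice, a 2.37-fold difference without overlap (log2 change 1.24 ± 0.25, edgeR adjusted p = 0.00623), which was missed in 1 of 21 alternatives, the fit of only the groups compared (edgeR adjusted p = 0.0727). Without the 3 libraries in doubt that difference was 0.93 (edgeR adjusted p = 0.00837). Old normal mice had Irs2 at 23.6 to 32.9 CPM, below every old dwarf library, although the difference at 22 months was not called. In old dwarf mice Irs2 was at 33.8, 45.1, 33.7, 45.7 and 54.5 CPM, so that it fell 1.92-fold with age (-0.94 ± 0.24, edgeR adjusted p = 0.0186). That fall was missed without dwarf 6-month replicate 5 or 22-month replicate 1 or 3, at edgeR adjusted p values of 0.0537 to 0.0560, and with the oviduct score as a covariate (-0.62, edgeR adjusted p = 0.126). Gab1 was 1.60-fold higher in young dwarf mice (0.68 ± 0.12, edgeR adjusted p = 0.00368), at 98.7 to 113 CPM against 50.5 to 83.3 CPM. The insulin receptor gene Insr changed by at most 0.20 ± 0.33 in the 4 comparisons and was not called.

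Grb14, whose product binds and inhibits the insulin receptor, was at 233, 17.8, 237, 137 and 261 CPM in young and 87.3, 51.0, 42.2, 71.5 and 80.3 CPM in old normal mice. The library at 17.8 CPM is normal 6-month replicate 2, and the other 4 young libraries were all above the old ones. Grb14 fell 2.78-fold with age in normal mice (-1.47 ± 0.44, edgeR adjusted p = 0.0476) and the change in dwarf mice was -1.35 ± 0.43 (edgeR adjusted p = 0.0502), from 220.3 to 332 CPM at 6 months to 89.4 to 145 CPM at 22 months, without overlap. The call in normal mice was kept in 7 of 21 alternatives, and only in the one without replicate 2 of the young mice among those that leave out 1 library. With the oviduct score as a covariate its log2 change was -0.45 (edgeR adjusted p = 0.717). Jak2, the kinase of the growth hormone receptor, was 2.52-fold higher in old normal mice (1.33 ± 0.37, edgeR adjusted p = 0.0359), at 24.2 to 40.1 CPM in young and 29.1, 185, 73.2, 39.1 and 48.8 CPM in old mice. The value of 185 CPM in replicate 2 stands apart, and without it the log2 change of Jak2 was 0.69 (edgeR adjusted p = 0.102). The rise was called in 10 of 21 alternatives.

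Htra1, a secreted serine protease, fell 2.87-fold with age in dwarf mice (-1.52 ± 0.40, edgeR adjusted p = 0.0215), from 281 to 451 CPM at 6 months to 96.5 to 178 CPM at 22 months. Igf2bp3, an RNA-binding protein gene named for its binding to Igf2 messenger RNA, fell 2.40-fold (-1.26 ± 0.35, edgeR adjusted p = 0.0265), from 4.01 to 4.83 CPM to 1.19 to 2.78 CPM. These falls were called in 13 and 14 of 21 alternatives, and with the oviduct score as a covariate they were -0.96 and -0.94 (edgeR adjusted p = 0.140 and 0.128). In normal mice the changes were -1.07 ± 0.40 for Htra1 and -1.12 ± 0.36 for Igf2bp3 (edgeR adjusted p = 0.110 and 0.0635). Neither gene was shown to respond differently in the 2 genotypes (edgeR adjusted p = 0.963 and 0.993).

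**Figure D4:**
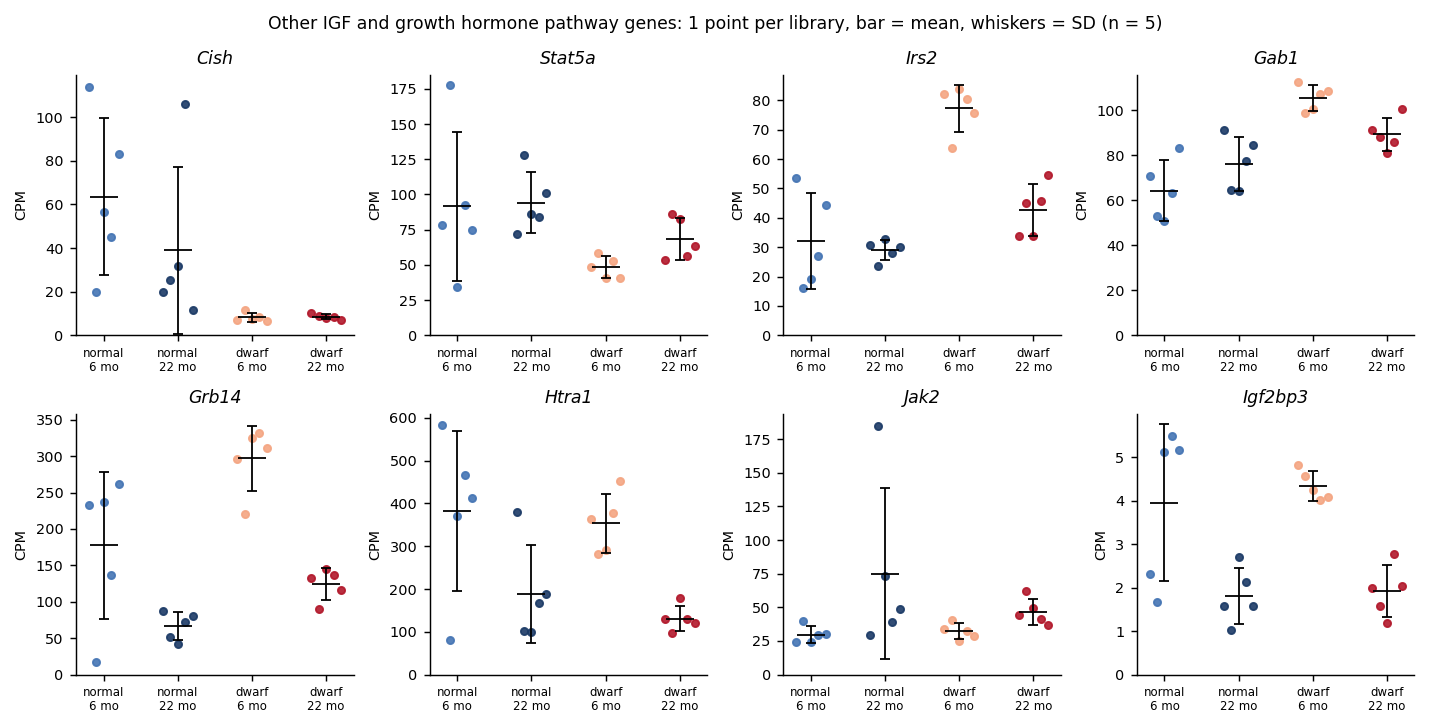
CPM of the 8 other pathway genes that passed a test, 1 point per mouse, with means and SD (n = 5). Cish is at 6.71 to 11.6 CPM in all 10 dwarf libraries and at 11.7 CPM or more in all normal ones, and Irs2 is highest in young dwarf mice.

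Genes with the level pattern most like that of a member were sought among 14124 genes of at least 2 CPM by Pearson's r of log2 CPM over the 20 libraries, as a description in which the libraries share their groups. The genes most like Igf2 were Klhdc8a (r = 0.97, and 0.80 for deviations from the group means), Wfikkn2 (0.95 and 0.59) and Mia (0.93 and 0.53). For Igf1 they were Prickle1 (0.86 and 0.75), Paqr6 (0.85 and 0.61) and the natriuretic peptide receptor gene Npr2 (0.85 and 0.56). For Igfbp4 they were Cpxm2 (0.95 and 0.83), Adh7 (0.91 and 0.73) and the mast cell tryptase gene Tpsb2 (0.89 and 0.70).

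The likeness of the receptor Igf1r to its nearest genes held almost as well within groups: Sytl4 (0.95 and 0.92), Trrap (0.95 and 0.91) and Bend4 (0.94 and 0.94). Igf2r was most like Ltbp1, Pcyt1a and Nbas (0.88, 0.85 and 0.85 over the 20 libraries), and Igfbp2 most like 1810058I24Rik, Dhps and Uqcrfs1 (0.91, 0.87 and 0.87). For Igfbp5 the leading genes were Flrt1, Ano1 and 6330403A02Rik (0.84, 0.82 and 0.81), for Igfbp6 Bmp4, Sphk1 and Tnnt2 (0.87, 0.85 and 0.85), and for Pappa Ddr2, Acsl4 and Speer7-ps1 (0.87, 0.83 and 0.83). Igfbp3 had the weakest likeness, with Rarg, Aspg and Nr1h2 at 0.73, 0.69 and 0.67. No member was among the 3 genes most like another member.

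Across mice of the same group, the 10 members were compared in 45 pairs by the correlation of their deviations from the group means over 20 libraries, with a permutation test that shuffled mice within groups. None of the 45 passed after Benjamini-Hochberg adjustment, by Pearson's r or by Spearman's rho (0 of 45 each). The pair of Igf1r and Igfbp6 had the largest coefficient, r = -0.82 (permutation p = 0.00687, adjusted p = 0.155) and rho = -0.67 (permutation p = 0.00795, adjusted p = 0.0716). The mean log2 CPM of 5 smooth muscle markers gave r = -0.80 with Igf1r and 0.81 with Igfbp6 within groups, and their part was not tested. For the pair, r was -0.66 without the 3 libraries in doubt and -0.70 without the 2 libraries farthest from the median of Igf1r. Igf2 and Igfbp4 had r = 0.48 (permutation p = 0.0223, adjusted p = 0.251) and rho = 0.61 (permutation p = 0.00488, adjusted p = 0.0609), with r = 0.53 after the same step for Igf2. The 2 ligands had r = 0.37 (permutation p = 0.229, adjusted p = 0.559) and rho = 0.13 (permutation p = 0.626, adjusted p = 0.854), with r = 0.25 after that step for Igf1.

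**Figure D5:**
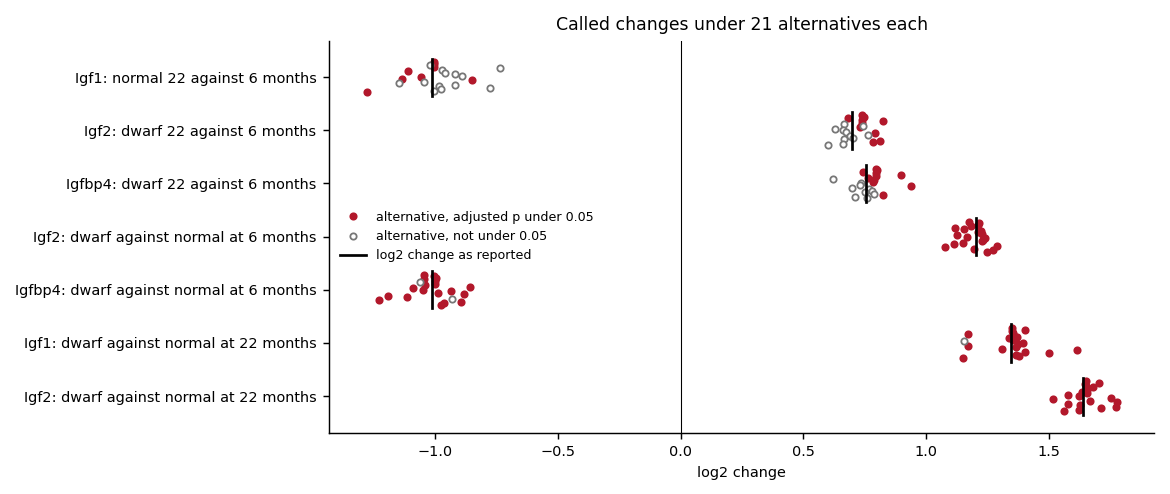
log2 changes of the 7 called differences of members as reported (black bars) and under 21 alternatives each (points). Filled red points have an adjusted p under 0.05. Both genotype differences of Igf2 are red throughout, while the 3 age changes have open points.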

How the data were processed

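Ovarian RNA of 20 mice was read as counts per gene in the files the authors deposited, 1 per library, with 5 libraries in each of 4 groups taken from the labels. Per the labels' protocols, frozen ovaries were extracted with Trizol and polyadenylated RNA was sequenced on Illumina libraries. Per the submitters' processing notes, the tools used include HTSeq, TopHat, TopHat2 2.0.10, Bowtie2, edgeR and DESeq, and the build is mm10. No source used here gives their roles or the strand setting. HTSeq's summary rows (9.84 to 17.6% of a file's counts) were left out. Columns of per-sample values left unused numbered 0. Coordinates and exon lengths came from the gene annotation deposited by the authors, whose other columns used here are start and end positions on mm10.

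CPM values use each library's total over genes. Tests used R 4.3.3 with edgeR 4.0.16: filterByExpr (minimum count 10, minimum total 15), TMM, a robust quasi-likelihood fit of 4 group means over 20 libraries, and Benjamini-Hochberg adjustment over 16099 genes at 0.05. The SE is the absolute log2 change over the square root of F. DESeq2 1.42.0, limma 3.58.1 (voom), other scalings, filters and sets of libraries were alternatives. The code was tested on simulated counts. log2 CPM used a prior count of 2, and correlations 100000 permutations within groups.

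The members and lists were chosen with earlier results of these data known. All 10 members were named, with the 3 genes most like each among those with at least 2 CPM and up to 3 called genes with the smallest p per comparison from the list of 28; Stat5a, H19, Socs2, Ghr, Insr and Igf2as were added after their values were seen. Dwarf and normal mice, and ages, were each compared within the other factor. Library totals of 1365640 to 36068284 limit precision mainly for Pappa.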

Additional observations from a re-analysis of the deposited data

Results flagged for a closer look

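Of the 40 groups of 5 values (10 genes in 4 groups), 6 held 1 library whose gap to its nearest neighbour was large for the range of the group by Dixon's test at the 95% level; chance flags about 1 in 20 groups. Igf1r was lowest in dwarf 22-month replicate 5, at 274 CPM, with the next library at 374 CPM. Igf2r was lowest in normal 22-month replicate 2, at 129.9 CPM, with the next at 176 CPM. Dwarf 6-month replicate 2 was highest in its group for Igfbp3, at 73.6 CPM against 32.0 CPM for the next, and for Igfbp4, at 296 CPM against 183 CPM. Igfbp5 was lowest in dwarf 22-month replicate 3, at 697 CPM, with the next at 1446 CPM. Pappa was highest in normal 6-month replicate 5, at 32.2 CPM, with the next at 9.94 CPM. None of the 6 values lies in one of the 3 libraries in doubt.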

How the results depend on the processing

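Both genotype differences of Igf2 kept their direction and call in all 21 alternatives run for each. The number of members called with age in normal mice was 1 and became 0 with no low-count filter, limma voom, only the groups compared, the oviduct score as a covariate, or without title numbers 21 to 23, and ranged from 0 to 1 when 1 library was left out; without the 3 libraries in doubt it was 1, but the member was Igf1r. With age in dwarf mice the 2 calls became 3 with DESeq2 (Igfbp2 added), 5 with limma voom, 4 with only the groups compared, 4 without the 3 libraries in doubt, 1 with the replicate block, 0 with the oviduct score and 0 with dwarf 22-month replicates 1 and 4 summed, and 0 to 2 when 1 library was left out. Between genotypes at 6 months the 2 calls became 3 with DESeq2 (Pappa added), 3 with the oviduct score and 3 without title numbers 21 to 23 (Igf1r added in both), 4 with limma voom, 1 with only the groups compared and 5 without the 3 libraries in doubt, and 1 to 3 when 1 library was left out. At 22 months the 2 calls became 4 with only the groups compared, 5 with limma voom, 4 without the 3 libraries in doubt and 1 without title numbers 21 to 23, and stayed 2 without any 1 library. Of all genes, limma voom called 1855 of 16099 between genotypes at 6 months and 2266 at 22 months. Without the 3 libraries in doubt these were 1991 and 1762 of 16366. With only the groups compared they were 244 of 15257 and 841 of 15208. DESeq2 and the oviduct score called 1414 and 1278 of 16099 at 6 months. Without title numbers 21 to 23 the calls were 764 and 323 of 16120 genes at 6 and 22 months. Leaving out 1 library gave 369 to 1459 genes called between genotypes at 6 months and 262 to 637 at 22 months. With age the same step gave 481 to 4384 genes called in normal and 802 to 1681 in dwarf mice. The difference of the age responses had 0 members called in each alternative. With age in dwarf mice limma voom called 7492 and DESeq2 2747 of 16099 genes, against 1802 as reported. There, 5169 of 15416 were called with only the groups compared and 4697 of 16366 without the 3 libraries in doubt. The oviduct score left 678 of 16099 called with age in dwarf mice and 3 with age in normal mice. Since that score moves with age, calls lost with it cannot tell oviduct markers from age. The replicate block called 1904 of 16099 with age in dwarf mice, and summing replicates 1 and 4 called 1107 of 16286. With age in normal mice limma voom called 3803 of 16099 and the fit with no low-count filter 1012 of 20344. Without title numbers 21 to 23 that count was 188 of 16120. The causes were not tested.

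Of 1140 alternative values of the members' log2 changes, 37 lost a call and 28 gained one. Another 74 changed sign, none of them called in either analysis, so no direction was drawn from them. Of the 45 pair correlations, 8 values changed sign without the 3 libraries in doubt. Over all genes, the calls with age in normal mice rose from 1086 to 4848 without those 3 libraries and fell to 0 with only the groups compared, and those for the difference of the age responses rose from 0 to 202 without the 3.

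Replicate numbers were not shown to pair the mice. Deviations of same-numbered libraries in different groups correlated by -0.22 to 0.72 (median 0.00, 30 pairs). Those of libraries with different numbers correlated by -0.65 to 0.46 (median -0.02, 120 pairs). With the replicate block, Igf2 with age in dwarf mice was 0.67 (edgeR adjusted p = 0.0548).

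Depth limits Pappa most, at 8 reads in the shallowest library. The edgeR p-values rest on the spread between libraries within groups, estimated over all 4 groups together. For dwarf 22-month replicates 1 and 4 it was not shown that the libraries are independent.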
